A study of Homo sapiens with 4 samples.

Results

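The genes of the proteasome, the protease complex that degrades proteins tagged with ubiquitin, were examined in HGC-27 cells after knockdown of the deubiquitinating enzyme USP47. Members were all protein-coding genes whose symbols start with PSMA, PSMB, PSMC, PSMD, PSME, PSMF or PSMG. This gave 49 of 63568 gene identifiers, and the 44 pseudogenes and 7 long noncoding RNAs with such symbols were left out. Of the 49 genes, 47 had enough reads to be tested. PSMA8, an alpha subunit known from the testis, had 0, 0, 1 and 1 counts, and PSMB11, the thymus-specific beta subunit, had 0, 1, 0 and 0. Both lay below 3 counts, which correspond to between 0.144 and 0.209 CPM (read counts scaled to library size) per library. This level was not the filter of the test, which was filterByExpr of edgeR. PSMC3IP and PSME3IP1 met the symbol rule but are named for the protein they bind and are not subunits, so they were counted apart. PSMB3, a beta ring subunit, was not analysed here.

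RNA-Seq was performed on 4 libraries of HGC-27, an established gastric carcinoma cell line. All cells had been infected with lentivirus, which carried a scrambled control shRNA in 2 libraries and shRNA against USP47 in the other 2. The labels call the samples biological duplicates, and whether the 2 knockdown libraries carried the same shRNA or different ones is not stated, so their spread can include that difference. The series text also names a DMSO vehicle for control cells without saying for which assay.

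The 26S proteasome has a barrel-shaped 20S core and a 19S cap. In the core, alpha rings gate the entry of substrates and beta rings hold the peptidase sites. The cap binds ubiquitin chains, removes them, and unfolds the substrate with a ring of ATPases. Immune signals such as interferon gamma replace the catalytic beta subunits with immunoproteasome versions that favour peptides for MHC class I, and loss of proteasome activity is known to raise most subunit genes together through the factor NRF1, encoded by NFE2L1.

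Total counts lay between 15649899 and 20140273 per library, and the members took between 0.347% and 0.401% of them. USP47 itself measured 80.0 and 66.1 CPM in controls and 36.0 and 21.5 CPM after knockdown. The transcript fell in both knockdown libraries (log2 fold change -1.34, SE 0.21; edgeR adjusted p = 0.00362). Here and below, SE is the standard error and adjusted p-values come from a quasi-likelihood test in edgeR with Benjamini-Hochberg adjustment over all tested genes. Of 12 gastric and epithelial markers, 9 stayed below 1 CPM in all libraries, among them KRT18, KRT19, GKN1 and EPCAM. EPCAM had 12 and 11 counts in controls and 3 and 3 after knockdown. It reached the test through its control counts alone, so no change is read from its lower call (edgeR adjusted p = 0.0418). MUC1 measured 15.2 and 14.8 CPM in controls and 22.6 and 17.0 CPM after knockdown, and was not called. VIM measured between 353 and 502 CPM. The 5 fibroblast markers summed to 1269 and 1305 CPM with control shRNA and to 746 and 1037 CPM with USP47 shRNA. Of these, 3 (COL1A1, COL1A2 and PDGFRA, at log2 fold changes of -0.75, -1.23 and -0.63) were called lower. DCN (0.24) had both knockdown libraries above both controls and LUM (-0.17) had overlapping groups, neither called. The 6 mesenchymal markers summed to between 754 and 767 CPM in the controls and between 669 and 826 CPM in the knockdown libraries. Most of it was VIM, and SNAI2 was called higher (0.50, edgeR adjusted p = 0.0448). CDH2 lay between 0.153 and 0.481 CPM. Of 6 leukocyte markers, 5 were below 1 CPM throughout, and the 3 endothelial markers measured (of 4 listed) all were. In bulk RNA, fewer cells of a kind and less RNA per cell cannot be told apart, and the part of these markers in the proteasome results was not tested.

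Knockdown of USP47 was accompanied by small changes in proteasome transcripts, and few of them passed the test. PSME2, PSMD5 and PSMB7 rose, and PSMB9 and PSMD14 fell. Among the other tested members, the constitutive beta ring and the 19S cap had log2 fold changes mostly above 0, the alpha ring lay near 0, and all 3 tested immunoproteasome subunits lay below 0. The 5 called members were 10.6% of the 47 tested, below the background of 16.1% of all 21932 tested genes called at an adjusted p under 0.05. The 3 called higher stood beside 6.52% of all genes called higher, and the 2 called lower beside 9.56% called lower. At an unadjusted p under 0.05, 14 members were higher and 4 lower, beside 3255 and 3780 of the 21932 genes. That the called share was lower among members than among all genes depended on the fit. With the replicate number added as a block, 18 members were called higher and 5 lower, beside 7419 of the 21932 genes. That was a larger share of the members than of all genes. The calls depended on single libraries, with 0 higher and 1 lower without control replicate 1 or 2, 20 higher and 3 lower without USP47 shRNA replicate 1, and 9 higher and 3 lower without replicate 2. The calls over all genes moved with them, to 1233 and 1416 without control replicate 1 and 2 and to 7272 and 6516 without USP47 shRNA replicate 1 and 2.

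Of the 47 tested members, 34 had a log2 fold change above 0, with a median of 0.21, while 49.2% of all tested genes lay above 0, with a median of -0.01. Abundance moved with this shift. Over the 5739 tested genes with an average log2 CPM from 5 to under 8, the median was 0.09 and 61.5% lay above 0, and 31 of the 37 members in that range lay above 0, with a median of 0.24. In 27 members both knockdown libraries lay above both controls, in 9 both lay below, and in 11 the groups overlapped. Over all tested genes 29.3% had both knockdown libraries above and 31.7% had both below. In the abundance range given above, 24 of the 37 members had both above and 3 had both below. Of the 5739 genes there, 2426 had both above and 1324 had both below. For 45 members the 95% confidence interval lay within 1 log2 unit of 0 on both sides, the exceptions being PSMB9 and PSMB8.

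**Figure D1:**
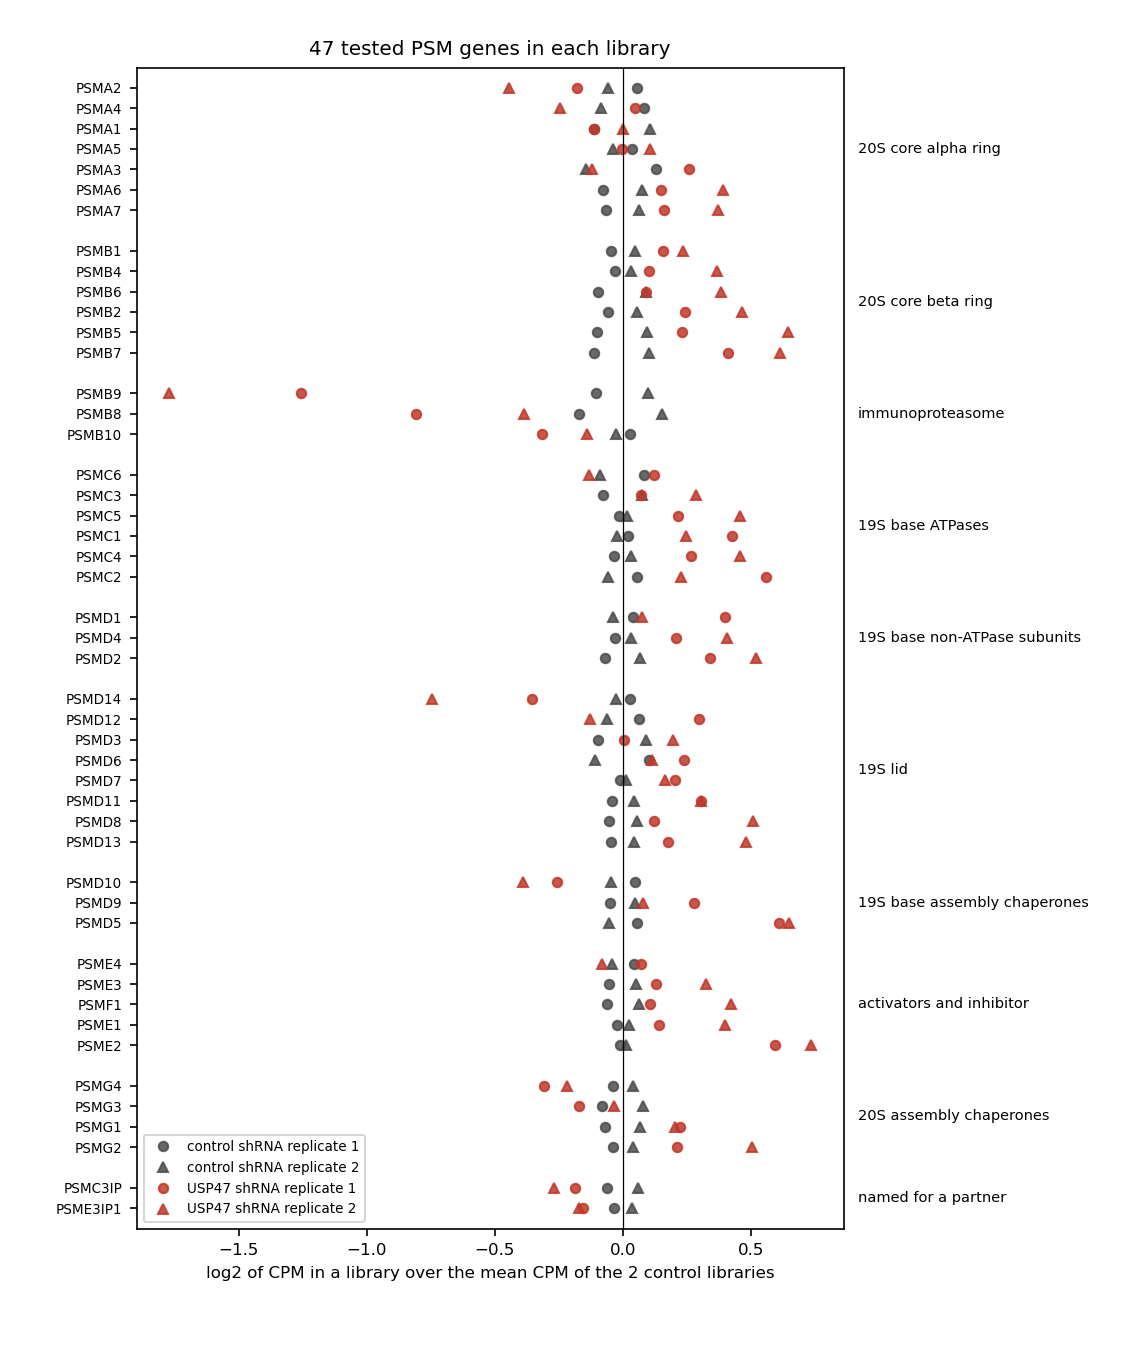
Each of the 47 tested members is a row, grouped by its place in the complex. The x axis is the log2 of its CPM in a library over the mean CPM of the 2 control libraries, with grey points for control shRNA, red for USP47 shRNA, circles for replicate 1 and triangles for replicate 2. PSMB9 lies farthest to the left, and in most beta ring and 19S rows both red points lie to the right of the grey ones.

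**Figure D2:**
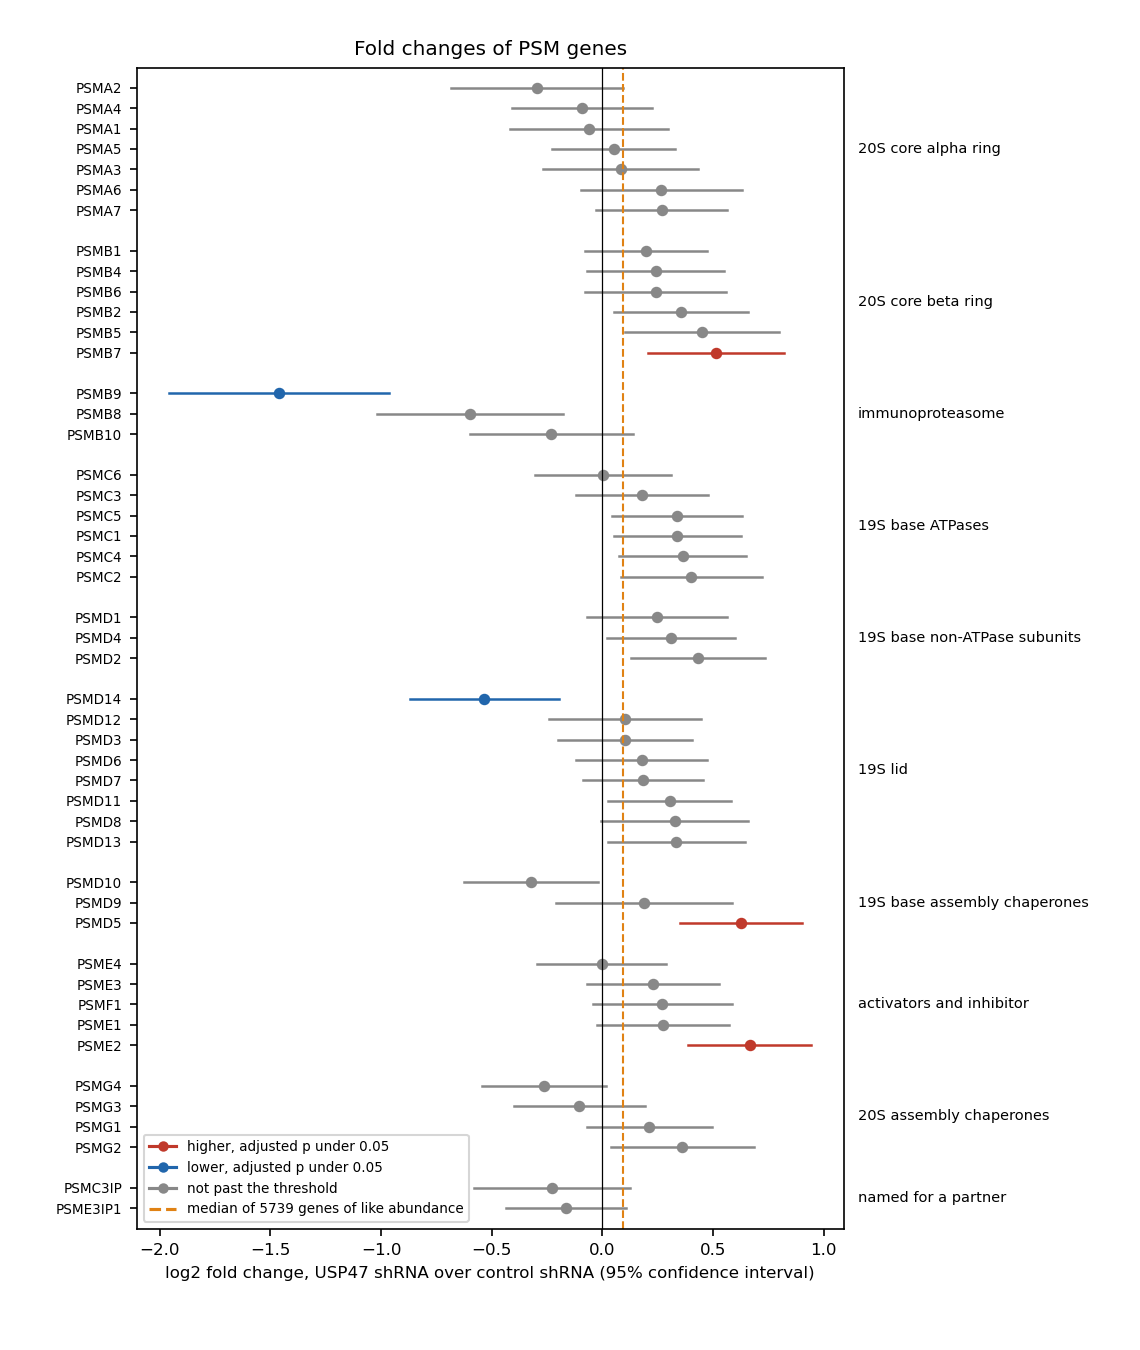
Log2 fold changes of the same members, USP47 shRNA over control shRNA, with 95% confidence intervals on the x axis. Red and blue mark adjusted p under 0.05 (3 higher, 2 lower), and the dashed line is the median of 0.09 over the 5739 genes of like abundance.

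Among the members, the rise was largest for PSME2, the beta subunit of the 11S activator that caps the core and assists the release of antigenic peptides. It measured 73.3 and 74.4 CPM with control shRNA and 111 and 123 CPM with USP47 shRNA, so the groups lay far apart relative to the gap within either. The log2 fold change was 0.67 (SE 0.13, 95% confidence interval 0.39 to 0.95, edgeR adjusted p = 0.00779). PSME2 (ENSG00000100911) lies on the minus strand of chromosome 14 at 24612571 to 24616779 of GRCh37. PSMD5, a chaperone that holds ATPases of the 19S base during assembly and is not part of the finished particle, measured 53.3 and 49.4 CPM in controls and 78.3 and 80.5 CPM after knockdown. Both knockdown values exceeded both controls, with a log2 fold change of 0.63 (SE 0.12, edgeR adjusted p = 0.00947). PSMD5 (ENSG00000095261) lies on the minus strand of chromosome 9 at 123577774 to 123605229. PSMB7, the beta subunit with trypsin-like activity, measured 90.7 and 105 CPM in controls and 130.1 and 149.7 CPM after knockdown. Its gap within each group was wider, and its log2 fold change was 0.51 (SE 0.14, edgeR adjusted p = 0.0319). PSMB7 (ENSG00000136930) lies on the minus strand of chromosome 9 at 127115744 to 127177723.

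PSMB9, the immunoproteasome counterpart of PSMB6, fell furthest. It measured 6.19 and 7.14 CPM (105 and 140 counts) in controls and 2.79 and 1.95 CPM (58 and 28 counts) after knockdown, a log2 fold change of -1.46 (SE 0.22, 95% confidence interval -1.96 to -0.97, edgeR adjusted p = 0.00317). Both knockdown libraries lay well below both controls. PSMB9 (ENSG00000240065) lies on the plus strand of chromosome 6 at 32811913 to 32827628. PSMD14, the metalloprotease of the lid that cuts ubiquitin chains from substrates as they enter, measured 41.7 and 40.1 CPM in controls and 31.9 and 24.4 CPM after knockdown. The controls nearly coincided and the knockdown libraries differed more, with a log2 fold change of -0.53 (SE 0.15, edgeR adjusted p = 0.0389). PSMD14 (ENSG00000115233) lies on the plus strand of chromosome 2 at 162164936 to 162268228. These calls, other than that of PSMB9, needed both control libraries. With control replicate 1 or 2 left out, the adjusted p of PSME2 was 0.161 or 0.101, of PSMD5 0.123 or 0.176, of PSMB7 0.472 or 0.146 and of PSMD14 0.274 or 0.162, whereas that of PSMB9 was 0.00013 or 0.00246. The value of PSMD14 was -0.35 without USP47 shRNA replicate 2. PSMD14 also lost its call under the DESeq2 Wald test (adjusted p = 0.0543).

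The upstream sequences of the called members with a RefSeq promoter entry (GRCh38.p14) are shown, since these transcripts moved in opposite directions. Each is the 250 bases before the annotated start, 5′ to 3′ on the gene's strand, at chr14:24146611-24146860 (minus strand) for PSME2, chr9:120842923-120843172 (minus strand) for PSMD5, chr6:32853942-32854191 (plus strand) for PSMB9 and chr2:161308175-161308424 (plus strand) for PSMD14. Capitals mark matches, on either strand, to the antioxidant response element core TGACNNNGC, which NRF1 and NRF2 bind, or to the CCAAT box.
PSME2: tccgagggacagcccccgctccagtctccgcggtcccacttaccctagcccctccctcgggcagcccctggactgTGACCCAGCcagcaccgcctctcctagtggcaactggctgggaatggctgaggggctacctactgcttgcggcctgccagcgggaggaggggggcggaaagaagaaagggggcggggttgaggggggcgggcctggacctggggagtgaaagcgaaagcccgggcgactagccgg
PSMD5: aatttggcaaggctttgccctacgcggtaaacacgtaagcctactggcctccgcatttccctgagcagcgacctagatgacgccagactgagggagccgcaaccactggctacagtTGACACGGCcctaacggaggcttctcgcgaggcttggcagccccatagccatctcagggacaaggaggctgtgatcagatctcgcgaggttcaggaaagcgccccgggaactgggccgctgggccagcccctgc
PSMB9: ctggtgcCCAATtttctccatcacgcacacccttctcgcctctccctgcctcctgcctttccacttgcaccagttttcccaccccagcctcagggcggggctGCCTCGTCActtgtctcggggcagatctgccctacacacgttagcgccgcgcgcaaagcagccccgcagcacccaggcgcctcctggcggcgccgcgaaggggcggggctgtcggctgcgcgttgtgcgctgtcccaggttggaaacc
PSMD14: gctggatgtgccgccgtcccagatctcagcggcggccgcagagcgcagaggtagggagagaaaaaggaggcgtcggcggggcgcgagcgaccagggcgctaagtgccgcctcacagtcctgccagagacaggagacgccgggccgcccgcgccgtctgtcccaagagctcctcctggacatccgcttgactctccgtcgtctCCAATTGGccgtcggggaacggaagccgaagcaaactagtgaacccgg

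The TGACNNNGC core lay 175 bases before the start of PSME2, 134 before that of PSMD5 and 148 before that of PSMB9, and PSMD14 held 2 overlapping CCAAT matches on opposite strands, 48 and 45 bases before its start. PSMB9 also held a CCAAT match at 243 bases. The core was therefore found in called members of both directions. Promoter windows of 250 bases before to 50 after the start were matched for 43 members, and PSMA7, PSMB1, PSMB6, PSMB7, PSMD4 and PSMG3 were not used here. TGACNNNGC was in 12 of these (27.9%) and in 13.6% of all 27305 windows, CCAAT in 20 (46.5%) and in 35.7%, and the interferon-type element TTCNNNGAA in 5 (11.6%) and in 7.88%. A match describes these letters only and is not evidence of binding.

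In the 20S core, 10 of 13 tested subunits lay above 0, and 1 rose (PSMB7). All 6 beta ring subunits lay above 0, with a median log2 fold change of 0.30. PSMB5, the chymotrypsin-like subunit that proteasome inhibitors target, measured 68.2 and 78.0 CPM in controls and 85.8 and 114 CPM after knockdown, without overlap, at a log2 fold change of 0.45 (SE 0.16, edgeR adjusted p = 0.0777). PSMB6, the caspase-like subunit, measured 49.6 and 56.5 CPM in controls and 56.4 and 69.3 CPM after knockdown. Its groups overlapped, and its log2 fold change of 0.24 did not pass (edgeR adjusted p = 0.274). With 1 library left out, PSMB5 ranged from 0.23 to 0.65 and PSMB6 from 0.091 to 0.39, both lowest without USP47 shRNA replicate 2. The lowest value of the ring was that of the structural subunit PSMB1, at 0.20 (edgeR adjusted p = 0.306), from 48.8 and 52.1 CPM to 56.3 and 59.3 CPM.

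The alpha ring differed little. Of its 7 tested subunits, 4 lay above 0 and 3 below, the median was 0.05 and none passed the test, 4 having overlapping groups. PSMA7 marked its upper end, with 81.4 and 88.9 CPM in controls and 95.1 and 110.1 CPM after knockdown (log2 fold change 0.27, edgeR adjusted p = 0.193). PSMA2 marked its lower end, with 8.37 and 7.75 CPM in controls and 7.12 and 5.92 CPM after knockdown (log2 fold change -0.30, edgeR adjusted p = 0.275). Pseudogenes of PSMA2 held reads equal to 9.15% and 13.2% of its own in controls and 20.3% and 14.1% after knockdown. Their part in its value was not tested. No confidence interval of the ring reached beyond 0.69 in size, that of PSMA2 reaching furthest down (-0.69 to 0.10).

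The immunoproteasome subunits were scarce in these cells, and 1 of the 3 tested fell. In all 3 both knockdown libraries lay below both controls, as in 31.7% of all tested genes, and their median log2 fold change was -0.60. That share was not taken for genes of their low abundance. PSMB8, the counterpart of PSMB5, measured 11.9 and 14.9 CPM (202 and 292 counts) in controls and 7.65 and 10.2 CPM (159 and 147 counts) after knockdown. Its log2 fold change of -0.60 (SE 0.19) missed the threshold (edgeR adjusted p = 0.0571), with an adjusted p between 0.000622 and 0.143 over the 9 alternatives that kept all libraries. Without control replicate 2 the value was -0.43 (adjusted p = 0.412). PSMB10, the counterpart of PSMB7, measured 8.84 and 8.51 CPM in controls and 6.97 and 7.87 CPM after knockdown, a log2 fold change of -0.23 (95% confidence interval -0.60 to 0.14, edgeR adjusted p = 0.366). Other genes overlap these exons. An unnamed gene on the same strand covers 39.4% of the exon bases of PSMB10, and genes on the opposite strand, PSMB9 among them, cover 17.3% of those of PSMB8, against 5.21% of PSMB9's by any gene. PTPRC, the common leukocyte antigen, lay between 0.472 and 0.627 CPM in the 4 libraries.

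Levels per gene length, as deposited TPM within each library, set each immunoproteasome subunit beside the constitutive subunit it replaces. The lengths were 3072 and 1420 bases for PSMB9 and PSMB6, 2006 and 1765 for PSMB8 and PSMB5, and 1853 and 2152 for PSMB10 and PSMB7. The size of each ratio depends on these lengths, while its change between libraries does not. PSMB9 reached 5.77% and 5.84% of the TPM of PSMB6 in controls and 2.29% and 1.30% after knockdown. PSMB8 reached 15.4% and 16.8% of PSMB5 in controls and 7.84% and 7.90% after knockdown. PSMB10 reached 11.3% and 9.40% of PSMB7 in controls and 6.22% and 6.11% after knockdown. All 3 ratios were lower in both knockdown libraries than in either control, and the sum of the 3 over the sum of their counterparts was 10.9% ± 0.152 (SD, n = 2) with control shRNA and 5.58% ± 0.171 (SD, n = 2) with USP47 shRNA. No test was made on these ratios, which combine lower immunoproteasome values with higher constitutive ones.

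**Figure D3:**
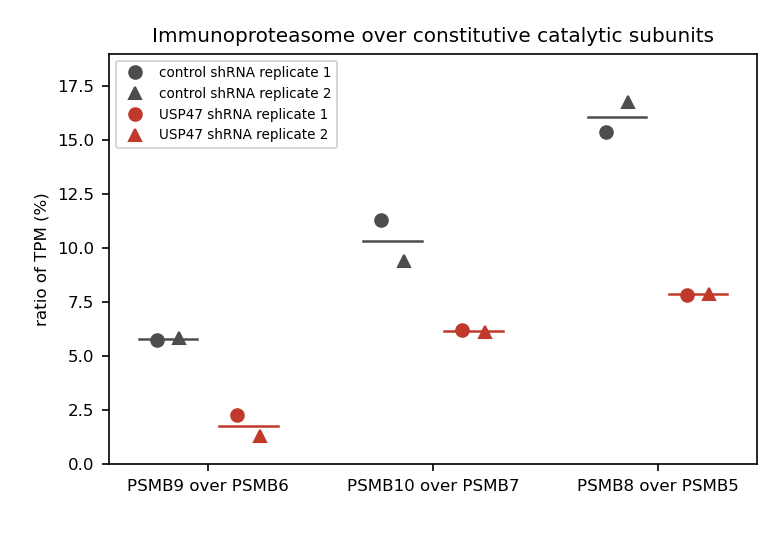
Ratio of TPM (y axis, in percent) of each immunoproteasome subunit to its constitutive counterpart in the 4 libraries, with horizontal bars at the group means. The USP47 shRNA points lie below the control points for all 3 pairs, at between 1.30% and 7.90% against 5.77% to 16.8%.

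PSMB9 shares its upstream region with TAP1, the peptide transporter subunit of the MHC class I pathway, whose RefSeq start lies 488 bases away on the opposite strand (1431 for another annotated TAP1 start). TAP1, chosen after its values were seen, measured 22.3 and 23.8 CPM in controls and 27.2 and 32.6 CPM after knockdown. Its log2 fold change was 0.37 (SE 0.14, edgeR adjusted p = 0.102), on the other side of 0 from that of PSMB9. PSMB9 reached 42.9% and 46.4% of the TPM of TAP1 in controls and 15.8% and 9.24% after knockdown, a ratio that was lower in both knockdown libraries.

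In the 19S cap, 16 of 17 genes lay above 0, with a median of 0.30, and only PSMD14 passed the test. At an unadjusted p under 0.05, 8 cap genes were higher, beside 1363 of the 5739 genes of like abundance. Both knockdown libraries lay above both controls in 12 of the 17, beside 2426 of those 5739 genes and 29.3% of all tested genes. The 6 ATPases of the base, which unfold substrates and open the core, all lay above 0 with a median of 0.34. PSMC2 had the highest value of the 6, from 75.9 and 70.1 CPM in controls to 107 and 85.4 CPM after knockdown (log2 fold change 0.40, edgeR adjusted p = 0.0816). PSMC6 had the lowest, from 64.6 and 57.3 CPM to 66.3 and 55.5 CPM, at 0.0017 (95% confidence interval -0.31 to 0.31), and it changed sign under other scalings and filters. PSMC1 (0.34) is uncertain, since its pseudogenes held reads equal to between 39.7% and 43.6% of its own and NRDE2 on the opposite strand covers 76.1% of its exon bases.

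The 3 non-ATPase subunits of the base all lay above 0, none past the threshold. PSMD2, a large scaffold of the base, came nearest, with 164 and 181 CPM in controls and 218 and 247 CPM after knockdown (log2 fold change 0.43, edgeR adjusted p = 0.0546), and the DESeq2 Wald test called it (adjusted p = 0.0286). PSMD4, a ubiquitin receptor, measured 112 and 117 CPM in controls and 133 and 152 CPM after knockdown (0.31, edgeR adjusted p = 0.132). The other scaffold, PSMD1, had 138 and 131 CPM in controls and 177 and 142 CPM after knockdown (0.25, edgeR adjusted p = 0.263), a value that was 0.085 without USP47 shRNA replicate 1 and 0.40 without replicate 2. In all 3 both knockdown libraries lay above both controls, as they did in 2426 of the 5739 genes of like abundance. The gap was wider within the knockdown libraries than within the controls.

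In the lid, which anchors the deubiquitinating step, 7 of 8 genes lay above 0, with a median of 0.18. PSMD13, a structural lid subunit, had the highest value, from 65.0 and 69.2 CPM to 75.8 and 93.5 CPM (0.33, edgeR adjusted p = 0.129). PSMD14, described above, was the gene below 0. The contrast between PSMD14 and the other lid subunits was not tested.

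Among the genes that assist the complex, PSMD5 and PSME2 rose and the others did not pass the test. PSMD10 (gankyrin), another chaperone of the base, measured 26.4 and 24.8 CPM in controls and 21.4 and 19.5 CPM after knockdown, at a log2 fold change of -0.32 (edgeR adjusted p = 0.135). Its groups did not overlap, and its sign was opposite to that of PSMD5. PSME1, the partner of PSME2 in the 11S ring, measured 70.3 and 72.6 CPM in controls and 78.8 and 94.2 CPM after knockdown (0.27, 95% confidence interval -0.02 to 0.57, edgeR adjusted p = 0.187). PSME3, the nuclear 11S activator, had 155 and 167 CPM in controls and 176 and 201 CPM after knockdown (0.23, edgeR adjusted p = 0.268). PSME4, a large activator linked to histone degradation, had 182 and 172 CPM in controls and 186 and 167 CPM after knockdown, with overlapping groups and a log2 fold change of -0.0032 (95% confidence interval -0.29 to 0.29). The inhibitor PSMF1 lay at 0.27 (edgeR adjusted p = 0.216).

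The 4 chaperones of the core split evenly around 0, with a median of 0.05 and no call. PSMG2, which pairs with PSMG1 on the alpha ring, measured 22.1 and 23.3 CPM in controls and 26.3 and 32.1 CPM after knockdown (0.36, edgeR adjusted p = 0.118). PSMG4, which pairs with PSMG3, measured 44.9 and 47.5 CPM in controls and 37.4 and 39.7 CPM after knockdown (-0.26, edgeR adjusted p = 0.178). Their partners PSMG1 and PSMG3 lay at 0.21 and -0.10, on the same side of 0 as the gene each pairs with. PSMC3IP, a recombination cofactor, and PSME3IP1 lay at -0.23 (edgeR adjusted p = 0.350) and -0.16 (edgeR adjusted p = 0.380), each with both knockdown libraries below both controls.

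**Figure D4:**
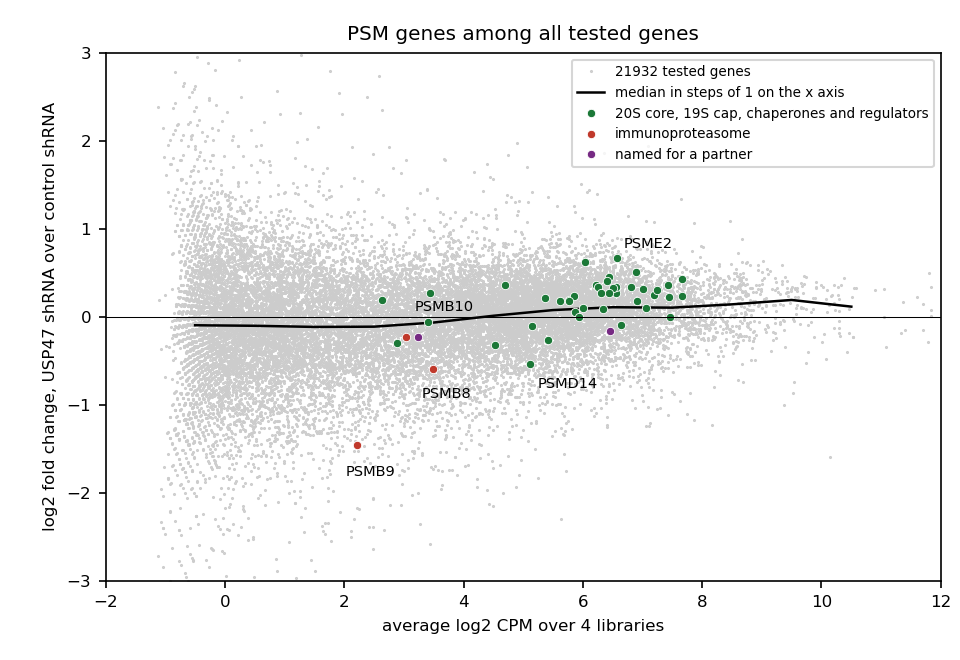
Log2 fold change (y axis, USP47 shRNA over control shRNA) against average log2 CPM (x axis) for 21932 tested genes, with medians in steps of 1 as a black line. 29 genes fall outside the drawn range of either axis, which is -3 to 3 for log2 fold change. Most constitutive members sit slightly above the line at high abundance, and the 3 immunoproteasome subunits sit below it at low abundance.

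Subunits that share the particle in equal number differed widely in deposited TPM. This held where no other gene overlaps the exons, as for PSMB4 and PSMA5 (control means of 117 and 13.7). The gene lengths of PSMB4 and PSMA5, by which TPM divides, were 2158 and 5737 bases. Their mean control CPM, not divided by length, lay closer together at 185 and 57.4. In deposited TPM, averaged over the 2 control libraries, PSMB4 led with 117, followed by PSMB2 with 75.9, PSMC3 with 68.3, PSMA7 with 66.5 and PSMB7 with 62.0. PSMC3 and PSMA7 were close within each control library, at 69.1 and 67.8 TPM in replicate 1 and 67.5 and 65.2 TPM in replicate 2. The lowest constitutive core subunits were PSMA1 (3.91), PSMA2 (2.08) and PSMA6 (2.05), all of the alpha ring. Genes annotated on the same strand cover 26.7%, 17.2% and 14.1% of the exon bases of these 3. For PSMD9, the lowest base chaperone at 0.883 TPM, the share was 14.9%. These shares are over the exons of all annotated transcripts. TPM divides by the gene length, which was 3711, 5332 and 6474 bases for PSMA1, PSMA2 and PSMA6. The part of this overlap and of these lengths in the low levels was not tested. Without the members whose exons overlap another gene by over 10%, 36 tested members remained, with 29 above 0, a median of 0.24, and 3 called higher and 2 lower.

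Replicate differences within a group moved with base composition. Over the 47 tested members, the log2 CPM of replicate 2 minus replicate 1 correlated with transcript GC content at r = 0.61 in the control libraries and 0.59 in the USP47 shRNA libraries, a description over genes that share the same 2 libraries. The log2 fold change between groups did not move with GC content over the same members (r = -0.01).

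**Figure D5:**
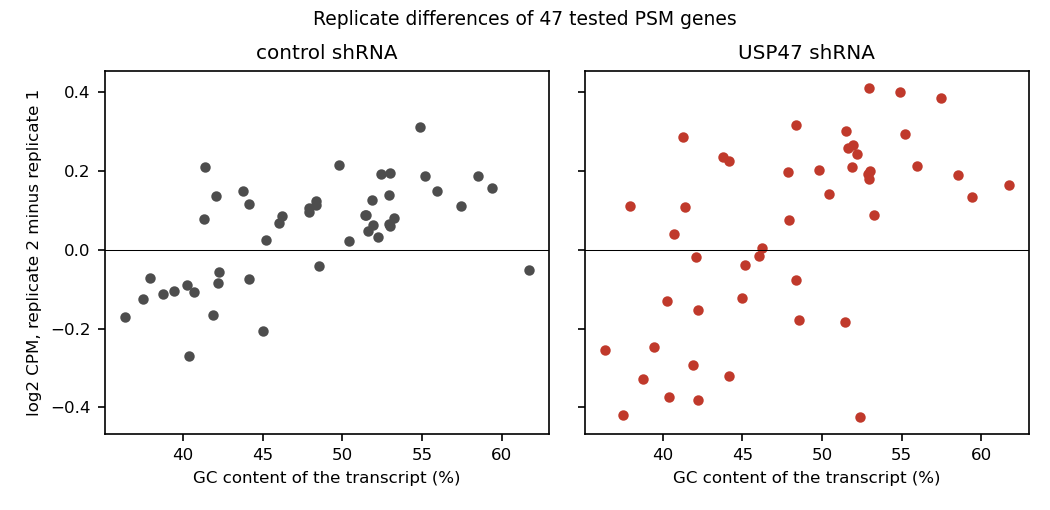
Log2 CPM of replicate 2 minus replicate 1 (y axis) against GC content of the transcript in percent (x axis) for the 47 tested members, in the control libraries (left) and the USP47 shRNA libraries (right). Members of low GC content lie mostly below 0 and those of high GC content mostly above it, at r = 0.61 and 0.59.

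Of 56 listed genes that act with the proteasome, 54 were tested, 5 rose and 3 fell (14.8% called, with 16.1% of all genes). Among proteins bound to the particle, ADRM1, a ubiquitin receptor of the cap, measured 39.1 and 44.9 CPM in controls and 62.9 and 67.3 CPM after knockdown (log2 fold change 0.63, edgeR adjusted p = 0.0117). TXNL1, a thioredoxin-like protein of the cap, rose by 0.56 (edgeR adjusted p = 0.0205), and PAAF1, which binds base ATPases, fell by 0.76 (edgeR adjusted p = 0.00779), from 23.6 and 21.5 CPM to 12.9 and 13.8 CPM. The other 7 of these 10 proteins were not called. NFE2L1 rose, with 186 and 192 CPM in controls and 247 and 298 CPM after knockdown (0.53, edgeR adjusted p = 0.0312), and was the only gene called of the 9 in its list. NFE2L2, which encodes NRF2, lay at -0.18 (edgeR adjusted p = 0.373).

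Upstream of the proteasome, the 2 ubiquitin-activating enzymes differed in direction. UBA1, the main one, rose by 0.60 (edgeR adjusted p = 0.0371) from 274 and 297 CPM to 364 and 499.8 CPM, and UBA6 fell by 0.53 (edgeR adjusted p = 0.0332) from 77.0 and 72.2 CPM to 57.8 and 45.6 CPM. Of 5 shuttle proteins that carry ubiquitylated substrates, UBQLN2 fell by 0.83 (edgeR adjusted p = 0.00371), from 46.5 and 50.5 CPM to 25.7 and 28.8 CPM. None of 10 heat shock genes was called by edgeR. At an unadjusted p under 0.05, 4 were higher and 1 lower, beside 3255 and 3780 of all 21932 genes. Of 14 tested genes of the interferon response and antigen processing, IRF1, a factor that induces immunoproteasome genes, was the gene called, with 7.90 and 8.05 CPM in controls and 11.9 and 12.3 CPM after knockdown (0.60, edgeR adjusted p = 0.0279). In all, 10 of these 14 genes lay above 0 while the 3 tested immunoproteasome subunits lay below it. Without control replicate 1, of the 8 called genes in these 2 paragraphs UBQLN2 alone kept its call, and without control replicate 2 only UBQLN2 and PAAF1 did. IRF1 also lost it in the Wald test of DESeq2 (adjusted p = 0.0814), and IRF1 and UBA6 both lost it with library size alone as the scaling (0.0641 for IRF1). Against a minimum fold of 1.2, TXNL1, NFE2L1, UBA1, UBA6 and IRF1 lost their calls (adjusted p 0.0753 to 0.114). The value of UBA1 was 0.36 without USP47 shRNA replicate 2.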

How the data were processed

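RNA-Seq libraries of HGC-27 cells with control shRNA or USP47 shRNA, 2 each, were grouped by the submitters' titles. The authors checked reads with FastQC, trimmed bases of quality below 20, mapped to hg19 with STAR 2.7.5c and used SAMtools 1.9 to discard duplicate and low-quality reads. The submitters' processing notes name featureCounts; its version, the annotation and the strand setting are not given in the sources used here, so reads in overlapping genes may be split or lost. Duplicate removal lowers the counts of abundant genes most. Methods and labels name different library kits, and the methods speak of triplicates. Each deposited file holds a count of reads per gene, not normalized, and TPM and FPKM values the authors derived from it. 1 identifier took 20.8% to 24.1% of the TPM, so TPM was compared within a library, its control mean only ordered the members, and FPKM was only an alternative.

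Of the identifiers, 55665 matched a symbol (GENCODE release lifted to GRCh37, the build of hg19). Counts were fitted with edgeR 4.0.16 in R 4.3.3 (TMM, filterByExpr, robust quasi-likelihood fit, two-sided test, group only), with Benjamini-Hochberg adjustment over 21932 genes and a threshold of 0.05. CPM are TMM-scaled, and confidence intervals use the fit's standard error. Alternatives were DESeq2 1.42.0, other scalings and filters, a minimum fold of 1.2, removal of mitochondrial and 7SL reads, the replicate number as a block, and each library left out. The steps were tested on simulated data. With 2 libraries per group, precision rests on the spread shared between genes, and p-values measure the spread between these libraries.

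Members and gene lists were chosen with earlier results of these data known. Named with values were the catalytic subunits, PSMD14, PSMD4, the PSME genes, the highest and lowest member of each part of the complex, all called members and called genes of the pathway lists, and NFE2L1, NFE2L2 and IRF1. 1 further gene of this rule is not reported here. Promoters came from RefSeq on GRCh38.p14, with no coordinates converted.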

Additional observations from a re-analysis of the deposited data

How the results depend on the processing

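PSMB9 fell in all 9 alternatives with every library (adjusted p 2.11e-10 to 0.0123) and in the 4 fits without 1 library. Against 3 members called higher and 2 lower, 1 was called lower with the DESeq2 Wald test, with no filter on low counts and with a minimum fold of 1.2; PSMD14 then lost its call (0.0543, 0.0547 and 0.123), as it did with library size alone (0.0769), and PSMB7 lost its call with the minimum fold (0.114). Calls over all genes numbered 3527, 2284 with DESeq2 and 1689 with the minimum fold. The replicate number as a block gave 18 members higher and 5 lower and 7419 calls over all genes. Same-numbered libraries deviated together (r = 0.32 over all tested genes). Over the 47 members, replicate 2 minus 1 correlated between groups at r = 0.67. There were only 2 pairs, and no label ties the numbers to a shared day. What same-numbered libraries have in common was not tested. Leaving out 1 library gave 0 to 20 members higher, 1 to 3 lower and 1233 to 7272 calls over all genes: 0 higher and 1 lower without either control library, 20 and 3 without USP47 shRNA replicate 1, and 9 and 3 without replicate 2. In these fits the lone library was assumed to vary like the other group; the cause of the swings was not tested. Fold changes near 0 reversed. PSME4 lay at 0.017 with DESeq2 and 0.013 with its size factors, and PSMC6 at -0.061 with library size alone, -0.026 with no filter, -0.014 when 10 counts per library were required and -0.0025 with the block. Without 1 library, PSMC6 ranged from -0.12 to 0.13 and PSME4 from -0.074 to 0.076. The median over all genes, -0.0083, turned to 0.094 for genes of average log2 CPM 5 to under 8, a range chosen after seeing the data, as was the count without overlapping exons. With library size alone the members' median was 0.15, and that of all genes -0.072. Ratios of TPM within a library are the same from FPKM or counts per kilobase by construction, so that alternative tests nothing.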

Other observations

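Pseudogenes and antisense RNAs of the same gene family were counted apart. The 13 PSMC1 pseudogenes held 679 and 837 counts in controls and 1182 and 720 counts after knockdown. PSMC1P1, named after its values were seen, measured 28.3 and 30.4 CPM in controls and 41.8 and 37.5 CPM after knockdown, with a log2 fold change of 0.43 (adjusted p = 0.0492, edgeR) beside 0.34 for PSMC1 itself (adjusted p = 0.0981, edgeR). Pseudogenes of PSMD10 held reads equal to between 15.2% and 18.6% of those of PSMD10, and pseudogenes of PSME2 to between 1.30% and 2.25% of those of PSME2. The antisense RNA PSMB8-AS1 had 10 and 12 counts in controls and 6 and 4 after knockdown, and PSMG3-AS1 had 233 and 258 counts in controls and 164 and 163 after knockdown, neither past the threshold (adjusted p = 0.148 and 0.0978, edgeR).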
